A study of Mus musculus with 39 samples.

Results

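The genes described here were 7 markers of intestinal cells held to survive damage or to appear after it, namely Bmi1, Hopx, Tert, Lrig1, Mex3a, Clu and Ly6a. They were taken by name from the deposited expression table, in which all 7 were found among 25219 genes. The cells were 39 single crypt epithelial cells of mice with the alleles Lgr5-EGFP-Ires-CreERT2 and Rosa-lsl-tdTomato. CreERT2 is expressed from the Lgr5 locus, so that tamoxifen marks crypt base stem cells and everything they later give rise to with tdTomato. Every cell came from mice given tamoxifen 24 h before 10 Gy total body irradiation, was taken 48 h after the irradiation, and was sorted as tdTomato+ and negative for the surface protein Sca1 (Sca1- Lgr5-derivatives). There was no unirradiated group, no Sca1+ group and no unlabelled group, and the labels do not tie cells to animals. All 39 cells thus count as 1 sample, no difference was tested, an SD below is the spread over cells, and the exact 95% intervals (Clopper-Pearson) cover counting error only.

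The crypt of the small intestine renews its lining from Lgr5-expressing stem cells at its base, which divide constantly and are sensitive to radiation. A second, slower or damage-tolerant stem cell has been sought with the reserve markers Bmi1, Hopx, Tert and Lrig1, and Mex3a has been used for a slowly dividing subset of Lgr5-expressing cells. Revival stem cells are a further state, seen after injury, marked by Clu and tied to the transcriptional co-activator YAP, of which Ly6a is a target gene. Ly6a encodes Sca1 itself, so its transcript was measured in cells chosen for the lack of its protein on the surface.

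Each cell had between 398418 and 3903971 estimated counts on genes (median 3089188) and between 2287 and 5779 genes at 1 FPKM or more (median 4609). FPKM is the number of fragments scaled to the length of the transcript and to the depth of the cell, and a gene at 1 FPKM or more is called detected below. A pair of cells stood apart with under 2500 detected genes each. These were cell 9, with 398418 counts, and cell 79, with 1466913 counts. Cell 79 had all 5 tuft cell markers found in the table, among them Avil at 386 FPKM and Trpm5 at 181, and 3 of 6 enterocyte markers, with Fabp1 at 40997 FPKM but Alpi, Apoa4 and Sis at 0. Cells are named by the numbers in their titles, and the last cell by its title, PR0549_101_a. All 6 epithelial markers examined were detected in 31 or more cells, whereas 6 stromal and 5 endothelial markers were at 0 in every cell. Of 8 immune markers, Itgam and Lyz2 were each detected in 1 cell and the other 6 in none.

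Detection differed widely between the genes. Hopx was found in 35 of 39 cells (89.7%, 75.8 to 97.1), Lrig1 in 21 (53.8%, 37.2 to 69.9) and Bmi1 in 13 (33.3%, 19.1 to 50.2). Clu followed with 6 cells (15.4%, 5.86 to 30.5), Mex3a with 5 (12.8%, 4.30 to 27.4), Ly6a with 4 (10.3%, 2.87 to 24.2) and Tert with 3 (7.69%, 1.62 to 20.9). The interval of Hopx lay above those of the other 6 genes, and that of Lrig1 lay above those of Clu, Mex3a, Ly6a and Tert. The intervals of Lrig1 and Bmi1 overlapped, as did those of Bmi1 and each of the 4 rarer genes. All genes were read in the same 39 cells, so overlap of separate intervals does not decide the order of these genes, which was not tested. Without cells 9 and 79 the counts were 33 of 37 for Hopx and 12 of 37 for Bmi1, and the counts of the other 5 genes stayed as they were.

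The same counts can be read against the whole table. Of all 25219 genes, 4.2% were detected in at least as many cells as Hopx, 13.6% in at least as many as Lrig1 and 21.9% in at least as many as Bmi1. For Clu, Mex3a, Ly6a and Tert these shares were 32.5%, 34.3%, 36.6% and 39.7%. Only Hopx belonged to the small set of genes found in nearly every cell.

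**Figure D1:**
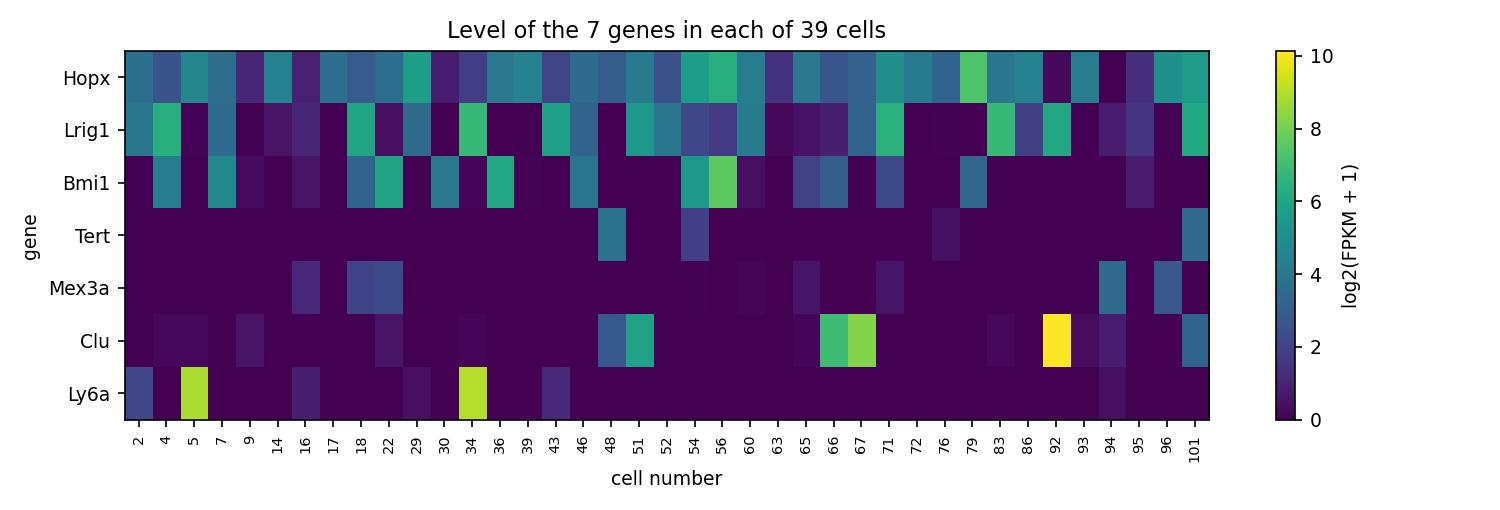
Level of the 7 genes, as log2(FPKM + 1) on the colour scale, in each of 39 Sca1- Lgr5-derivatives (columns, by cell number; rows are genes). Hopx is filled across most columns, Lrig1 and Bmi1 in patches, and the brightest squares of Clu (cell 92) and Ly6a (cells 5 and 34) stand in different columns.

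For 5 of the 7 genes a promoter was found in the RefSeq table (assembly GRCm38.p6, 6 windows because Hopx has 2 starts). The 250 bases before the start are printed for the 3 reserve markers found in most cells and for Tert, the marker found in fewest, so that their base composition can be set beside their detection. Each is read 5′ to 3′ on the strand of the gene, and capitals mark the letters GGAATG, the core that TEAD factors, the DNA-binding partners of YAP, recognise.
Hopx, chr5:77115124-77115373, minus strand: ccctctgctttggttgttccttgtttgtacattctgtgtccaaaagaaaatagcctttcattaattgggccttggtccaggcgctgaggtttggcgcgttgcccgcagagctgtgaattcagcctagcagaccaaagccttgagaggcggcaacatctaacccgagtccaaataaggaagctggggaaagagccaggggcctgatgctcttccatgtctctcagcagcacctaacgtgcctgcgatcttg
Lrig1, chr6:94700146-94700395, minus strand: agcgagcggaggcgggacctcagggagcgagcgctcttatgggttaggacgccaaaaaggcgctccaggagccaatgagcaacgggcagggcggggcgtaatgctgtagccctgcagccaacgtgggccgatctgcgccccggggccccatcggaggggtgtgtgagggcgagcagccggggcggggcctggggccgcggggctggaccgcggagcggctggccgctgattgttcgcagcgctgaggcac
Bmi1, chr2:18676768-18677017, plus strand: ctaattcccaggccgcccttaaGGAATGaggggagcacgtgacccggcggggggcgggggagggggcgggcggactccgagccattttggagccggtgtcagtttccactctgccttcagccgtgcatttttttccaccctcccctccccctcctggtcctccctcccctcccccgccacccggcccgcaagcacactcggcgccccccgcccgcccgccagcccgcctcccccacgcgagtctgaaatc
Tert, chr13:73626661-73626910, plus strand: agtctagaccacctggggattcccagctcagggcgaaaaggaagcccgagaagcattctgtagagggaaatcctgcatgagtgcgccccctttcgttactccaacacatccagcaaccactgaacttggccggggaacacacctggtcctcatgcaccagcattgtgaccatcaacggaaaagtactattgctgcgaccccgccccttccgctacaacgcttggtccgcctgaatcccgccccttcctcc

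The order of detection was not the order of CpG content. Hopx, found in most cells, had 8 CpG in its printed window and a GC content of 52.4%, which equals the median over 32851 promoter windows of that length (52.4% GC, 6 CpG). Its second start, at chr5:77095268-77095517, had 18 CpG and 57.6% GC. Lrig1 had 26 CpG and 71.6% GC, Bmi1 21 and 70.4%, Mex3a 19 and 64.0%, and Tert 12 and 57.2%. The TEAD letters GGAATG, searched on both strands, occurred once in the Bmi1 window and in none of the other 5, against 12.6% of all windows. The letters ATCAAAG, a core read by the TCF and LEF factors of Wnt signalling, were on either strand of 3.21% of all windows and in none of the 6. The TATA box letters TATAAA were on either strand of 12.4% of all windows and likewise in none of the 6. The 3 motifs do not contain one another. These are matches of letters in a short window and are no evidence of binding.

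Hopx encodes a small homeodomain protein that does not itself bind DNA. It lies on chromosome 5 at 77086986-77115123, minus strand (GRCm38). Over the 39 cells its level ran from 0 to 161 FPKM with a median of 11.8 and a mean of 19.8 ± 28.7 (SD). Only cell 94 was at 0, and 3 further cells lay under the limit, at 0.895 in cell 16, 0.747 in cell 30 and 0.205 in cell 92. The gene was thus low in few cells and its positive cells covered a broad range without a gap, 29 of them at 5 FPKM or more. The highest cell, 79, was also the one with few genes and with tuft cell and enterocyte markers, whose part in its Hopx value was not tested, and it carried 20.9% of all Hopx FPKM, on 562 counts. Without it the mean was 16.1 FPKM, and cell 56 came first with 80.2. The lowest detected value, 1.11 FPKM in the shallow cell 9, rested on 2 counts. Hopxos, an antisense gene at 77094532-77102303, lies within Hopx and is not a row of the table. The library kits do not keep strand, so reads from the pair could not be told apart.

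Lrig1 encodes a transmembrane protein that restrains signalling by receptors of the EGF receptor family. It lies on chromosome 6 at 94604529-94700145, minus strand. Its FPKM ran from 0 to 111, with a median of 1.90 and a mean of 20.1 ± 33.2. The 21 positive cells had a median of 14.8 FPKM, and 8 of them exceeded 50, with cell 83 at 111, cell 34 at 109 and cell 71 at 87.8. Cells at the top and at the bottom were joined by intermediate values down to 1.14 in cell 16, where 21 counts were found. No single cell dominated, since the highest held 14.1% of the summed FPKM. The level of Lrig1 moved with the number of genes detected per cell (Pearson r 0.42 and Spearman rho 0.46, n = 39 cells of 1 sample, as a description), and the part of this number in the Lrig1 values was not tested. Its end overlaps Slc25a26 on the other strand, which was detected in 6 cells.

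Lrig1 can also be set beside its family and the receptors it acts on. Lrig2 was detected in 6 cells and Lrig3 in 5. Of the receptors, Egfr was detected in 13 cells, Erbb2 in 9, Erbb3 in 6 and Met, the receptor of hepatocyte growth factor, in 10. Erbb4 was detected in none, with a value above 0 in 1 cell only. Lrig1 was the sole gene of these 8 that reached more than 50% of the cells.

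Bmi1 encodes a ring finger subunit of Polycomb repressive complex 1, which places ubiquitin on histone H2A and keeps genes silent. It lies on chromosome 2 at 18677018-18686629, plus strand, with no other annotated gene over it. Its FPKM ran from 0 to 198 with a median of 0 and a mean of 12.1 ± 34.3. Cell 56 was the highest at 198 FPKM on 1705 counts, followed by cell 36 at 67.7, cell 22 at 59.4 and cell 54 at 41.1. The median of the 13 positive cells was 15.5, and the lowest, cell 65, stood at 2.96 FPKM on 42 counts. The next cell down, cell 95, had 0.693 FPKM on 10 counts, so positive cells were set apart from the other 26, of which 20 were at 0. Cell 56 held 41.7% of all Bmi1 FPKM, and the mean without it was 7.26. The same cell held the highest summed level of 6 Paneth cell markers, 12674 FPKM against a median of 359.7 over all cells, with the defensin gene Defa24 at 8338. Whether Paneth cell RNA had a part in the Bmi1 value was not tested.

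Other subunits of the complex were found at a like frequency. The list of 19 genes held none that was detected in 50% of the cells or more, and a cell had between 0 and 10 of them, with a median of 3. The commonest were Pcgf3 in 14 cells, Bmi1 and Rybp in 13 each, and Pcgf1, Pcgf6 and Yaf2 in 12 each. The catalytic subunits Rnf2 and Ring1 were detected in 9 and 6 cells. Cdkn2a, the cell cycle inhibitor that Bmi1 is known to silence, was at 0 in all 39 cells, those without Bmi1 included.

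Tert encodes the reverse transcriptase of telomerase and lies on chromosome 13 at 73627001-73649041, plus strand. It was detected in cell 48 at 12.7 FPKM on 177 counts, in cell PR0549_101_a at 10.4 on 145 counts and in cell 54 at 2.65 on 38.5 counts. Cell 76 had 0.367 FPKM and the other 35 cells were at 0, for a mean of 0.668 ± 2.61. The positive cells were few but rested on 38.5 counts or more each. By contrast, the genes of the particle that carries telomerase and other small nucleolar RNAs were widespread, with Dkc1, Nop10 and Nhp2 in 36 cells each at medians of 119, 291 and 310 FPKM. Gar1 of the same particle was found in 23 cells, and Wrap53, which brings telomerase to Cajal bodies, in 21. The shelterin genes, which cap the telomere, ranged from Terf1 in 19 cells and Acd in 18 to Pot1b in 2. Terc, the RNA template of telomerase, was listed at 0 in every cell. It lacks the poly(A) tail by which such libraries are primed.

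Mex3a encodes an RNA-binding protein with a ring finger, and lies on chromosome 3 at 88532395-88541394, plus strand. Its detected values were 10.4 FPKM in cell 94, 5.77 in cell 96, 3.85 in cell 22, 3.09 in cell 18 and 1.26 in cell 16, on between 27 and 176 counts. The highest FPKM was thus 10.4, beside 161 for Hopx and 111 for Lrig1 on the same per-length scale, and the mean over 39 cells was 0.653 ± 1.99. In cell 94 itself Hopx was at 0 and Lrig1 at 0.760 FPKM. A further 4 cells had values above 0 and under 1 FPKM. The 5 positive cells did not share a setting. Olfm4, an abundant gene of crypt base stem cells, stood at 3154 FPKM in cell 18, 2353 in cell 96 and 754 in cell 22, but at 12.5 in cell 94 and 0.329 in cell 16. Cell 96 also carried the tuft cell genes Avil at 1162 FPKM and Dclk1 at 222, and the stem cell antigen gene Prom1 at 549.6. Of the Mex3 relatives, Mex3c was detected in 21 cells, Mex3b in 2 and Mex3d in 1.

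Clu encodes clusterin, a secreted chaperone, and lies on chromosome 14 at 65968483-65981545, plus strand. Its detected values were 1124 FPKM in cell 92, 304 in cell 67, 126 in cell 66, 56.1 in cell 51, 8.52 in cell PR0549_101_a and 5.84 in cell 48, the last on 43 counts. The next value down was 0.754 in cell 94, so no cell lay between 1 and 5 FPKM and the 6 positive cells were set off from the other 33. A further 9 cells had traces above 0 and 24 were at 0. The mean was 41.7 ± 186 FPKM, of which cell 92 supplied 69.1%, and it was 13.2 without that cell. Clu therefore had the highest mean FPKM of the 7 genes through a single cell while its median was 0.

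Ly6a lies on chromosome 15 at 74994877-74998031, minus strand. It was high in 2 cells, at 509 FPKM in cell 34 on 1942 counts and at 477 FPKM in cell 5 on 1620 counts, and these held 99.4% of its summed FPKM. Cell 2 had 3.44 FPKM on 11 counts. Cell 43 had 1.26 FPKM on 1 count, and this cell had only 661255 counts on genes. So in cells sorted for the absence of Sca1 protein, 2 of 39 held abundant transcript, and the other 37 held at most 3.44 FPKM. Of the 10 relatives of Ly6a found in the table, Ly6e was detected in 31 cells at a median of 38.4 FPKM. The close relatives Ly6c1, Ly6c2, Ly6f, Ly6i, Ly6d and Ly6k were at 0 in every cell, that is, no read was assigned to them.

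**Figure D2:**
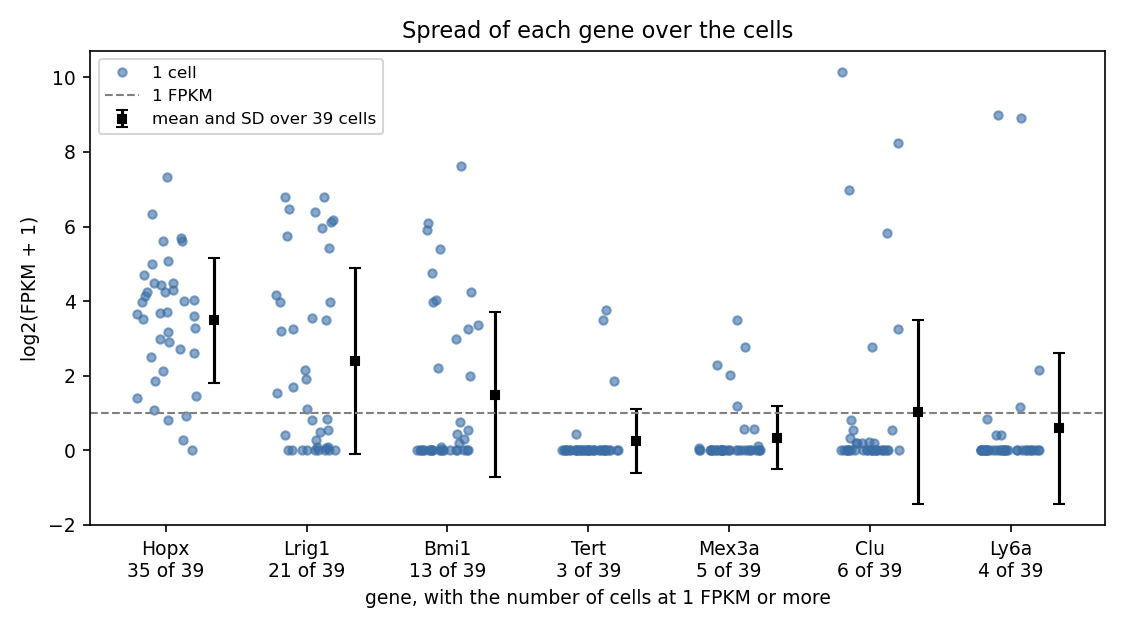
Level of each gene as log2(FPKM + 1) in 39 cells (blue points, spread sideways for visibility), with the mean and SD over all cells (black squares and bars) and the limit of 1 FPKM (dashed line). Hopx fills its range without a gap, Bmi1 and Clu show a gap above the limit, and Ly6a has 2 cells far above the rest.

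The second question was whether these markers met in the same cells. Every cell had at least 1 of the 7 genes. There were 10 cells with 1 gene, 13 with 2, 13 with 3 and 3 with 4, so 29 of 39 had 2 or more (74.4%, 57.9 to 87.0) and 16 had 3 or more (41.0%). The 3 cells with 4 genes were cell 18 (Bmi1, Hopx, Lrig1 and Mex3a), cell 54 (Bmi1, Hopx, Tert and Lrig1) and cell PR0549_101_a (Hopx, Tert, Lrig1 and Clu). No cell had 5 or more. The cells showed 18 different combinations, and 12 of these occurred in 1 cell only. The commonest were Hopx alone in 8 cells, Hopx with Lrig1 in 6 and Bmi1 with Hopx and Lrig1 in 5.

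Among the 4 reserve markers alone, 25 cells had 2 or more (64.1%, 47.2 to 78.8), 13 had 1 and cell 94 had none. All 4 met in cell 54 only, where Bmi1 stood at 41.1 FPKM, Hopx at 50.998, Tert at 2.65 and Lrig1 at 3.47. Bmi1, Hopx and Lrig1 together were found in 7 cells. Much of this meeting came from Hopx, which was nearly everywhere. Hopx was in 12 of the 13 Bmi1 cells, 19 of the 21 Lrig1 cells and all 3 Tert cells, beside 35 of all 39.

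Bmi1 and Lrig1, both of intermediate frequency, showed no preference for each other in these counts. They met in 7 cells, which is 53.8% of the Bmi1 cells (25.1 to 80.8) and 33.3% of the Lrig1 cells (14.6 to 57.0). Lrig1 was found in the same 53.8% of all cells, and Bmi1 in 33.3% of all cells. Tert met Lrig1 in cell 54 and cell PR0549_101_a, Bmi1 in cell 54, and Clu in cell 48 and cell PR0549_101_a, on 3 Tert cells in all. Over the 21 pairs of genes, Pearson r of log2(FPKM + 1) across the 39 cells lay between -0.22 and 0.24, which is weak for every pair.

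**Figure D3:**
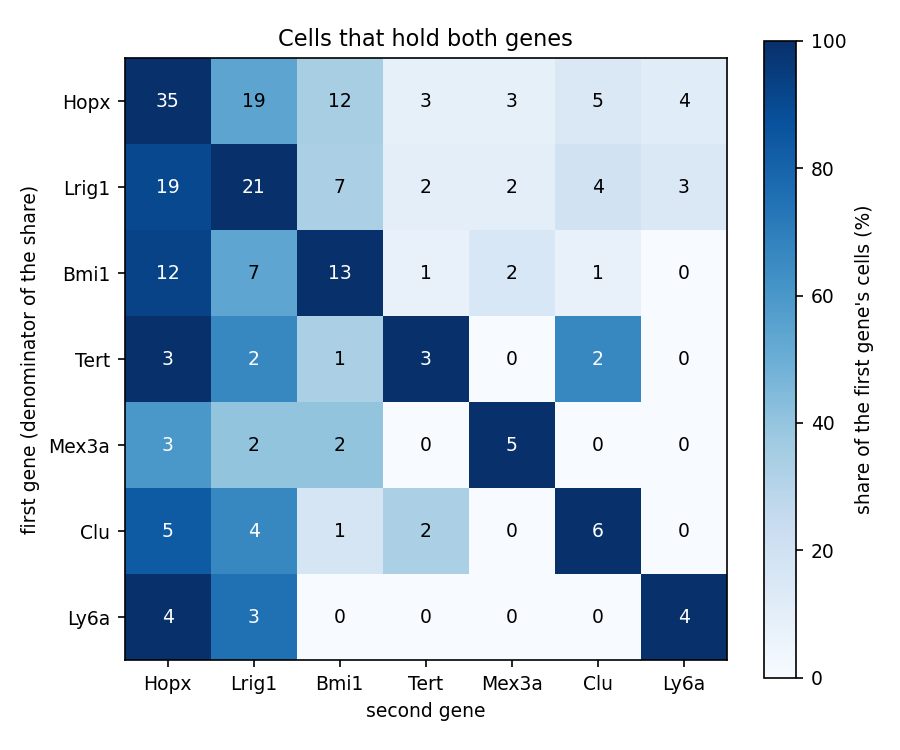
Number of cells in which each pair of genes was detected (figures in the squares, the diagonal giving each gene alone), with the colour showing that number as a share of the cells of the gene on the vertical axis (%). The Hopx column holds more than 50% of the cells of every gene, and 6 pairs stand at 0, among them Clu with Ly6a.

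Of the 21 pairs, 15 met in at least 1 cell. The 6 that did not were Bmi1 with Ly6a, Tert with Mex3a, Tert with Ly6a, Mex3a with Clu, Mex3a with Ly6a, and Clu with Ly6a. Each of these joins a gene found in 6 cells or fewer to another gene, and 0 of 39 cells allows a share of up to 7.69% of all cells by a floor of 3 counts, or 9.03% by the exact interval. Read within the cells of a gene, the exact limits are wider, since 0 of the 4 Ly6a cells allows up to 60.2% and 0 of the 6 Clu cells up to 45.9%. Absence of a meeting is therefore not shown for any of these pairs.

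Of the revival markers, Clu or Ly6a was detected in 10 cells and both in 0, which with 6 and 4 cells is too few to show that they keep apart. At any value above 0 they met in 3 cells. The cells with abundant Ly6a had Clu at 0.145 FPKM (cell 34) and 0.163 FPKM (cell 5), and the 6 Clu cells had Ly6a at 0. Of these 10 cells, 9 also had Bmi1, Tert or Lrig1, beside 28 of all 39 (71.8%). Lrig1 was found in 4 of the 6 Clu cells, at 68.7 FPKM in cell 92, 8.59 in cell 67, 41.9 in cell 51 and 71.1 in cell PR0549_101_a. It was found in 3 of the 4 Ly6a cells, at 109 FPKM in cell 34, 52.6 in cell 43 and 14.8 in cell 2. Bmi1 was in 1 of the 6 Clu cells, cell 66, and in none of the 4 Ly6a cells.

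Olfm4 was then read in the cells with Ly6a or Clu. It was detected in 33 of 39 cells, with a median of 829 FPKM. Of the 6 cells under 1 FPKM, 3 were Ly6a cells, with Olfm4 at 0.320 in cell 34, 0.180 in cell 5 and 0.574 in cell 2. Cell 43, the fourth, had 5.38. Ly6a and Olfm4 accordingly ran in opposite directions over the cells (Pearson r -0.52, Spearman rho -0.62, n = 39 cells, r -0.46 without the highest Ly6a cell). The sort removed cells with the protein of Ly6a, and 32 of the 39 cells were at 0 for its transcript, so this describes a few cells.

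The Clu cells were mixed in this respect. Cell 92, with the highest Clu, had Olfm4 at 0.757 FPKM, while the other 5 had 485 in cell 67, 829 in cell 66, 187 in cell 51, 135 in cell PR0549_101_a and 202 in cell 48. These 5 had Clu and Olfm4 in the same cell, with Olfm4 at or below the median of all cells. The correlation depended on the measure and on cell 92 (Pearson r -0.14, or 0.04 without cell 92, and Spearman rho -0.46). Lgr5 was detected in 2 of the 6 Clu cells, at 20.7 FPKM in cell 92 and 1.41 in cell 48.

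**Figure D4:**
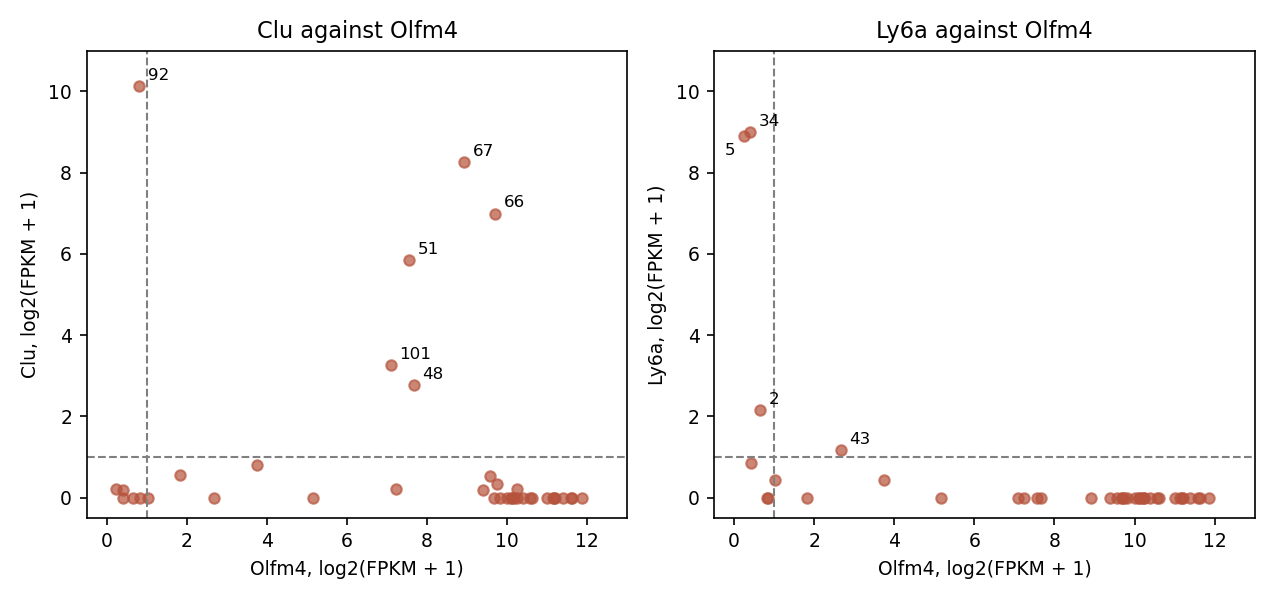
Clu (left) and Ly6a (right) against Olfm4 in 39 cells, all as log2(FPKM + 1), with dashed lines at 1 FPKM and cell numbers beside cells with the marker. The Ly6a cells lie at the left edge, with Olfm4 at 5.38 FPKM or less, while 5 of the 6 Clu cells lie to the right, with Olfm4 at 135 FPKM or more.

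Lgr5, whose locus drove the labelling, was detected in 8 cells. Of these, 7 had Hopx, 4 had Lrig1, 2 had Bmi1, 2 had Clu, 1 had Tert, 1 had Mex3a and none had Ly6a. Lgr5 was not detected in 11 of the 13 Bmi1 cells and 17 of the 21 Lrig1 cells, shares close to the 31 of all 39 cells without it.

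Proliferation and arrest genes were then read in the same cells. Mki67, a gene of dividing cells, was detected in 27 of 39 cells. It was in 11 of the 13 Bmi1 cells (84.6%, 54.6 to 98.1), 16 of the 21 Lrig1 cells (76.2%, 52.8 to 91.8), 25 of the 35 Hopx cells, 3 of the 5 Mex3a cells and 3 of the 6 Clu cells. The intervals include the 69.2% of all cells, and so the reserve markers were not confined to cells without Mki67. Cdkn1a, the p21 gene induced by p53 after DNA damage, was detected in 29 cells, with a median of 26.1 FPKM over all 39. It was in 25 of the 35 Hopx cells, 14 of the 21 Lrig1 cells (66.7%, 43.03 to 85.4), 8 of the 13 Bmi1 cells (61.5%, 31.6 to 86.1), 3 of the 5 Mex3a cells and 2 of the 3 Tert cells, each share below the 74.4% of all cells, which the intervals given include. All 6 Clu cells had it above that median, at 126 FPKM in cell 92, 160 in cell 67, 179 in cell 66, 326 in cell 51, 60.8 in cell PR0549_101_a and 322 in cell 48. Its relation to Clu was moderate and kept its size without cell 92 (Pearson r 0.42 and 0.41, Spearman rho 0.37). The 4 Ly6a cells had Cdkn1a at 115.5 FPKM in cell 34, 38.2 in cell 5, 78.0 in cell 2 and 16.2 in cell 43. For detection in all 6 Clu cells (100%, 54.1 to 100) and all 4 Ly6a cells (100%, 39.8 to 100), the intervals also include the 74.4%.

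Other genes of YAP activity and of the fetal-like repair state were counted in the cells with Clu or Ly6a. Of 21 such genes besides Clu and Ly6a, 6 were at 0 in every cell, among them the YAP target Ankrd1. The remaining 15 were detected somewhere, and a cell had between 1 and 8 of the list, with a median of 3. The 10 cells with Clu or Ly6a had between 3 and 8, led by cell 51 with 8, cell 34 with 7 and cells 92 and PR0549_101_a with 6 each. A count of 5 or more was reached by 7 of these 10 cells and by 12 of all 39. Cells 16, 56 and 94, without detected Clu or Ly6a, also had 6 each. Of the 15 genes, 8 had their highest value in one of the 10 cells (53.3%), beside 26.1% of the 12426 genes detected in any cell. This difference was not tested, since the cells are 1 sample.

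The genes that peaked there differed from cell to cell. Anxa1, which encodes a phospholipid-binding annexin, was detected in cell 92 only, at 329 FPKM. Areg, an EGF receptor ligand, peaked in cell 51 at 227 FPKM, and its relative Ereg in cell 34 at 39.2. Il33, an alarmin, was highest in cell 34 at 102 FPKM. S100a6, a calcium-binding protein gene, stood at 2121 FPKM in cell 5, 1692 in cell 67 and 401 in cell 34. Tubb6 reached 324 FPKM in cell PR0549_101_a and 307.5 in cell 51. The rest of the 15 genes, apart from Crip2 and Gja1, peaked in cells without detected Clu or Ly6a. Among them, Cyr61 was detected in 16 cells and was highest in cell 22 at 204 FPKM, and Ctgf was detected in cell 36 only, at 2.41. Anxa8 peaked in cell 16, Krt7 in cell 4, Cxcl16 in cell 17, Ecm1 in cell 93 and Basp1 in cell 79. Cell 5 also had the goblet cell genes Agr2 at 15335 FPKM and Tff3 at 11289, but Muc2 and Clca1, of the same list of 6, at 0. Its summed goblet level of 26749 FPKM was below the 41329 of cell 63, which had neither Ly6a nor Clu, and the part of these genes in its Ly6a value was not tested. Cell 16, with Ly6a at 0.809 FPKM just under the limit, also had S100a6 at 531, Il33 at 92.1 and Olfm4 at 0.329.

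Further genes proposed for reserve or damage-tolerant cells were more uneven than the members. Sox9, a transcription factor of the lower crypt, was detected in 38 of 39 cells at a median of 38.5 FPKM, and the keratin gene Krt19 in 37 at a median of 284. Prom1 was in 23 cells, Krt15 in 10 and the Notch ligand gene Dll1 in 9. Prox1 was at 0 in every cell and Msi1 was under 1 FPKM in every cell. The crypt base list of 14 genes had 9 that were detected in 50% of cells or more, among them Olfm4, Smoc2 in 27 cells and Ascl2 in 20.

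The genes whose pattern was most like each member were sought among the 8655 other genes detected in 5 cells or more, by Pearson r of log2(FPKM + 1) over the 39 cells. For Clu they included Me1, the cytosolic malic enzyme gene (r 0.73, or 0.63 without cell 92, Spearman rho 0.46), with 48.3 FPKM in cell 92, 36.1 in cell 48, 32.7 in cell 67 and 14.99 in cell 51. Me1 was also at 21.5 FPKM in cell 43 and 3.08 in cell 34, which had no detected Clu, and it was under 1 FPKM in the Clu cells 66 and PR0549_101_a. The list for Clu also held Ankrd52 (r 0.65, or 0.48 without cell 92, Spearman rho 0.12, shared by 3 Clu cells).

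Neighbours of the other members followed the same measure. For Lrig1 they were Tars2 (r 0.69, rho 0.62, shared by 17 of the 21 Lrig1 cells), Ppan (r 0.62) and Abi1 (r 0.61, shared by 18). For Hopx they were Strn3 (r 0.63), Oard1 (r 0.63) and Fbp2 (r 0.58), and all 3 had their highest value in cell 79 as Hopx did, with r between 0.54 and 0.61 without it. For Bmi1 they were Tmem181a (r 0.61, or 0.49 without cell 56), Phip (r 0.56, or 0.55, shared by 11 of the 13 Bmi1 cells) and Mum1 (r 0.55, or 0.42), and for Mex3a Snora24 (r 0.69, or 0.47 without cell 94), Thap2 (r 0.63, or 0.37 without it) and Aaed1 (r 0.62, or 0.54). Values of this size are among the largest of 8655 for each gene and rest on few positive cells for Mex3a and Clu. Snora24 was itself detected in 5 cells only, at 4.78 FPKM or less, and 3 of these were Mex3a cells. Ly6a and Tert were detected in too few cells for such a search.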

How the data were processed

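Single cells were captured on the Fluidigm C1 system, and cDNA (SMARTer Ultra Low) was made into Nextera XT libraries without molecular identifiers. The authors deposited FPKM and estimated counts per gene for each of 39 cells. The submitters' processing notes name bcl2fastq 1.8.4 and TopHat2 2.0.14 with mm10/GRCm38, and the counting tool is not given in the sources used here. FPKM values were used as deposited, and the deposited estimated counts (18.4% of those above 0 differed from a whole number by more than 1e-06) gave depth. The total behind FPKM exceeds the counts on genes, which made up 33.4% to 95.2% of it, and 1 FPKM was worth a median of 3.64 counts for Ly6a and 21.0 for Mex3a. No 2 cells correlated above r 0.76, so none was a duplicate.

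Cells at 1 FPKM or more were counted, with a pseudocount of 1 FPKM for correlations (Python 3.11.15, scipy 1.17.1). Named genes were the 7 members, genes of fixed lists, and the 3 genes most like each member detected in 5 cells or more. A gene that this rule names is not reported here. Overlapping genes were read from the GENCODE annotation of GRCm38. Members and lists were chosen with earlier results of these data known. No count model was fitted, because cells of 1 sample are not replicates.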

Additional observations from a re-analysis of the deposited data

How the results depend on the processing

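Of the 10 shares of cells, all stayed close to the reported value when FPKM was rescaled to the counts on genes, when cells 9 and 79 were left out, or when 10 counts were also required. The last setting was chosen after seeing the data and left Hopx in 32 cells and Ly6a in 3. At any value above 0 FPKM, the shares became 97.4% for Hopx, 76.9% for Lrig1, 38.5% for Clu, 48.7% for Bmi1, 23.1% for Mex3a, 17.9% for Ly6a, 94.9% for 2 or more of the 7 genes and 89.7% for 2 or more of the 4 reserve markers, and Clu and Ly6a then met in 3 cells. At 5 FPKM or more, Hopx was in 74.4% of cells, Mex3a in 2 cells and Ly6a in 2, and the shares with 2 or more genes fell to 59.0% for the 7 and 48.7% for the 4 reserve markers. After thinning to 600000 reads, with 1 read taken as detection and 1 shallow cell left out, 89.5% of 38 cells had 2 or more of the 7 genes. The single genes were then in 89.5% of cells for Hopx, 68.4% for Lrig1, 42.1% for Bmi1, 23.7% for Clu, 18.4% for Mex3a, 15.8% for Ly6a and 10.5% for Tert. At a pseudocount of 0.1 FPKM the correlation of Ly6a with Olfm4 went from -0.52 to -0.66, while without cells 9 and 79 those of Cd81 went from -0.12 to 0.08 with Hopx and from 0.03 to -0.15 with Lrig1, all weak. Of the 3 genes most like each member, 1 remained for Bmi1 and 1 for Mex3a at that pseudocount, and 1 for Mex3a and 0 for Clu when detection in 10 cells was required, which Me1 does not reach. No paired analysis was possible because there is 1 group and no test. Dropout before amplification limits every count of cells without a gene, since a transcript lost there reads as 0.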
